A study of Homo sapiens with 24 samples.

Results

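Ovcar8 cells given the medium of cisplatin-treated senescent cells were compared, by their polyA RNA, with Ovcar8 cells given fresh medium. Ovcar8 is a human cell line from ovarian cancer of the high grade serous type. The comparison takes 6 of the 24 libraries of the series, 3 labelled as senescent conditioned medium and 3 as fresh medium. All cells, those given fresh medium included, were kept in ultra-low attachment plates, to which they cannot stick, and were grown before that in RPMI medium with serum. Conditioned medium was mixed with an equal part of the same serum-containing medium. Medium of vehicle-treated proliferating cells (proliferative medium, 3 libraries) is given beside the pair where a level is read against medium that any cells had conditioned. The labels give 1 protocol text, on conditioned medium, to all groups, and fresh medium is told apart by its own treatment label. They name neither the line that conditioned the medium nor the length of the exposure, and a single line received it. Nothing in them tells whether the replicates were separate cultures, so the p values measure a spread between libraries that may be technical. Per the series' design text, the question is what the senescence-associated secretory phenotype does to gene expression in these cells.

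Senescent cells no longer divide but stay metabolically active, and they release cytokines, proteases, growth factor binding proteins and small metabolites, together called the senescence-associated secretory phenotype. Conditioned medium carries these products, and it may also lack nutrients that the cells have used and hold what any growing cells give off. When oxygen is scarce or certain metabolites build up, the transcription factor HIF escapes breakdown and switches on genes of glycolysis, pH control and blood vessel growth. Interferons act through a complex of STAT factors and IRF9 on antiviral genes, and the factor NF-kB drives cytokine genes.

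Levels are fragments scaled to gene length and library size (FPKM, the authors' own values) and are given for libraries 1, 2 and 3 in that order. Differences are log2 fold changes, senescent minus fresh, ± an approximate standard error (SE), from edgeR quasi-likelihood fits of the counts over all 24 libraries. A gene is said to have risen or fallen where its Benjamini-Hochberg adjusted p over the 19210 genes tested was under 0.05. Total counts of the 6 libraries ran from 15246741 to 17777279. The third senescent library stood apart from the other two. Its counts differed from theirs by a chi-square of 6.79 to 6.83 per gene, where the other two differed by 1.67 and pairs of fresh libraries by 2.31 to 3.30. Without it, 3346 genes rose and 2841 fell in place of 3487 and 2971, the median of none of the 32 gene lists described here changed sign, and no list median moved by more than 0.096. Mitochondrially encoded genes held 5.93% to 6.12% of the counts in fresh medium and 4.09% to 4.79% in senescent medium. The markers of the line PAX8, KRT7, KRT8, KRT18, MSLN, CD24 and EPCAM were present, EMX2 was at 0 in all 6 libraries, and MUC16, SOX17 and ESR1 were near 0. Of 10 leukocyte markers, PTPRC, CD3E and MS4A1 were at 0 in all 6, and the sum over the list was 2.59 to 3.48 FPKM in fresh and 3.43 to 4.67 in senescent medium. Of 10 fibroblast markers DCN and DPT were at 0, and the sum of 213 to 227 FPKM in fresh and 125 to 132 in senescent medium came almost wholly from COL1A1. Endothelial markers summed to 23.6 to 25.6 and 28.1 to 33.9 FPKM, almost wholly from EGFL7 (means of 23.5 in fresh and 30.4 in senescent medium). Mesothelial markers summed to 14.9 to 16.7 and 21.3 to 22.4 FPKM. The part of these shifts in the results was not tested. In such bulk libraries, fewer cells of a kind and less RNA per cell cannot be told apart.

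Across the transcriptome 3487 genes rose (18.2% of those tested) and 2971 fell (15.5%), together 33.6%. Most shifts were small, since 4050 of the 6458 calls (62.7%) lay under 0.5 on the log2 scale. A log2 fold change above 1 was called for 480 genes (2.5%) and below -1 for 400 (2.08%), against 396 and 477 with library totals and 371 and 600 with GC content and length corrected for. Leaving out any 1 of the 6 libraries kept 2262 of the rises and 1698 of the falls. Rises made up 54.0% of the calls with TMM factors but 38.7% when counts were scaled to library totals alone (2576 rose and 4079 fell), a scaling that moved the median of all genes by -0.071. The senescent libraries all lay above the fresh ones in FPKM for 23.2% of the genes tested and all below for 20.9%. Among protein-coding genes 3176 of 14396 rose and 2461 fell. The scatter of all genes tested places the gene groups described next on this background. Its median log2 fold change was -0.00031. The counts of each gene list below stand beside the 18.2% of all genes tested that rose and the 15.5% that fell. Counts against proliferative medium stand beside 16.6% of all genes tested higher in senescent medium and 12.4% lower.

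**Figure D1:**
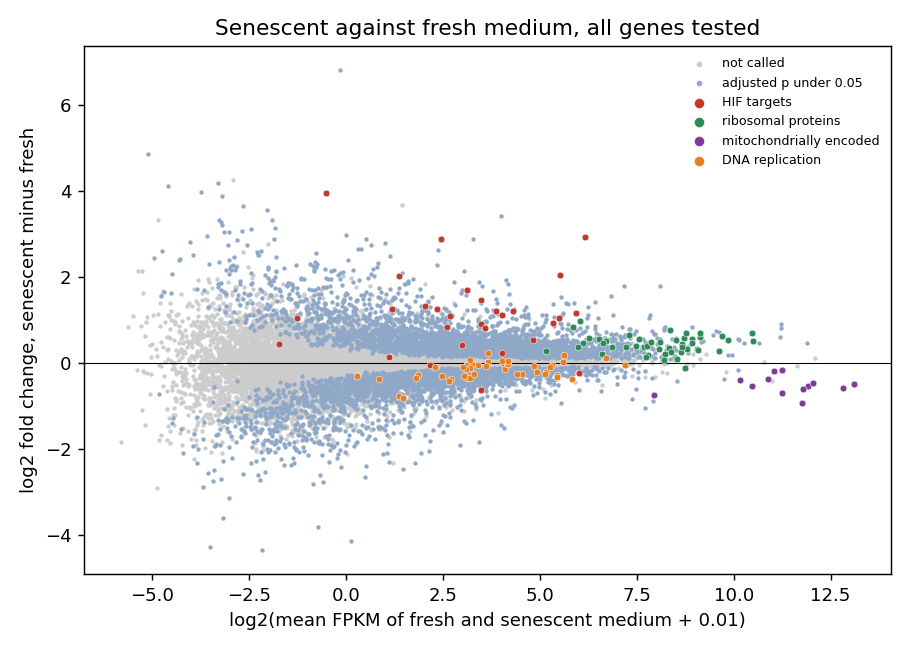
Log2 fold change (senescent minus fresh) of each gene tested against the log2 of its mean FPKM plus 0.01 in both media. Grey points were not called, blue points have an edgeR adjusted p under 0.05, and larger points mark 4 gene lists; HIF targets lie mostly above 0 (24 of 30 rose) and mitochondrially encoded genes below it (12 of 13 fell).

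The 15 largest rises among protein-coding genes of at least 1 FPKM that were called without any 1 library too included genes of pH control and low oxygen, epithelial keratins, and secreted inhibitors and hormones. NDRG1, a stress gene induced by low oxygen (ENSG00000104419, chromosome 8, 133237171 to 133302022 on GRCh38), stood at 17.5, 17.1 and 16.1 FPKM in fresh medium and 130.4, 127 and 124 in senescent medium (log2 change 2.92 ± 0.04, edgeR adjusted p = 2.52e-42). The groups were far apart, with little spread within either. SLPI, a secreted inhibitor of neutrophil elastase (ENSG00000124107, chromosome 20, 45252239 to 45254564), stood at 1.88, 3.24 and 3.16 FPKM in fresh and 30.4, 29.5 and 27.7 in senescent medium (log2 change 3.41 ± 0.16, edgeR adjusted p = 5.09e-21). KRT17, a keratin of stressed and wound-edge epithelium (ENSG00000128422, chromosome 17, 41619441 to 41624842), stood at 2.23, 2.03 and 2.69 FPKM in fresh and 17.6, 17.3 and 16.3 in senescent medium (log2 change 2.87 ± 0.10, edgeR adjusted p = 1.48e-26), and its close relative KRT16 at 0.181, 0.312 and 0.179 in fresh and 1.53, 1.98 and 1.73 in senescent medium (2.97 ± 0.31). These keratins have near-identical copies in the genome, so the split of reads between them is uncertain. The complement protein C3 (ENSG00000125730, chromosome 19, 6677704 to 6730562) stood at 1.54, 1.37 and 1.42 FPKM in fresh medium and 9.63, 8.66 and 8.49 in senescent medium (log2 change 2.63 ± 0.07, edgeR adjusted p = 2.27e-30). None of these genes had a senescent library within the fresh range.

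**Figure D2:**
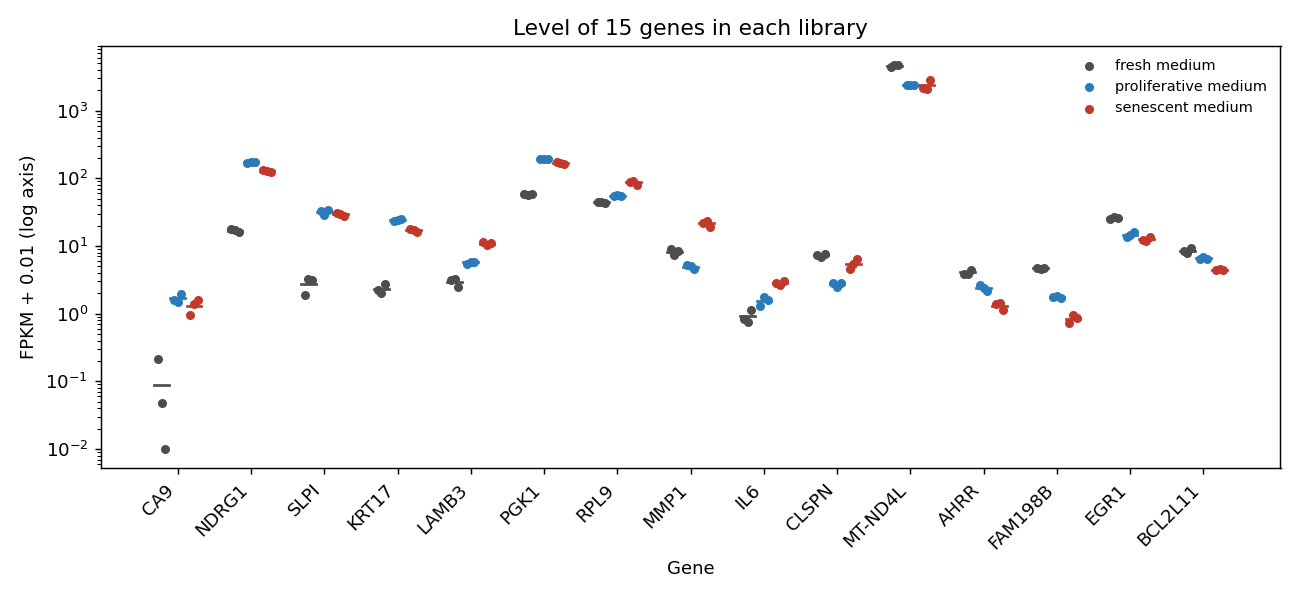
FPKM plus 0.01 (log axis) of 15 genes in each library of fresh (grey), proliferative (blue) and senescent (red) medium; points are libraries and short bars are group means. The senescent libraries of NDRG1 (124 to 130.4 FPKM) lie above all fresh ones (16.1 to 17.5) and below all proliferative ones, while those of MMP1 lie above both other groups.

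The hormone STC1, which acts on calcium and phosphate balance, stood at 1.39, 1.38 and 1.17 FPKM in fresh and 9.13, 9.07 and 10.5 in senescent medium (2.87 ± 0.10). APLN, which encodes the vessel-acting peptide apelin, stood at 0.209, 0.241 and 0.587 FPKM in fresh and 2.51, 2.33 and 1.83 in senescent medium (2.65 ± 0.24). The calcium-binding protein CALB1 rose from 0.660 ± 0.0870 to 3.69 ± 0.148 FPKM (SD, n = 3; 2.49). WFDC2, which encodes the ovarian cancer serum marker HE4, rose from 0.585 ± 0.112 to 2.95 ± 0.467 FPKM (2.31). FGFBP1, a carrier that frees fibroblast growth factors from the matrix, rose from 0.576 ± 0.0868 to 2.61 ± 1.00 FPKM (2.18). The other 5 of the 15 were CA9, PDZK1IP1 (2.87), PRTN3 (2.73), the neutrophil proteinase 3, ZP1 (2.65), a protein of the egg coat, and SUN3 (2.28).

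HIF binds a short core, ACGTG or GCGTG on either strand, in the regulatory DNA of its targets. The stretches shown hold such cores (capitals) within the 250 bases before the RefSeq start of 4 genes of the hypoxia and glycolysis lists. Each is written 5′ to 3′ on the gene's own strand, from GRCh38.p14, and the match is one of letters only. A run of CACGTG holds a core on each strand and counts as 2.
PGK1 (chrX:78104022-78104084, plus strand): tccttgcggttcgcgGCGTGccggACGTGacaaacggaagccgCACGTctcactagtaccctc
BNIP3 (chr10:131982014-131982081, minus strand): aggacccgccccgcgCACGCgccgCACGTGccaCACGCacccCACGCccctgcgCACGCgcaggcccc
ANGPTL4 (chr19:8363906-8363940, plus strand): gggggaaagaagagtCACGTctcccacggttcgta
LDHA (chr11:18394363-18394387, plus strand): cttagactcccagcgCACGTGgagc
A core was found in 19 of the 23 HIF target promoters that had an entry (82.6%), in 10 of 19 glycolysis promoters (52.6%), and in 56.0% of 11957 promoters of genes tested. LDHA has 5 cores in its 250 bases, of which 2 are shown. The glycolysis share was close to that of all genes tested.

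HIF targets were the list with the highest median. Of 30 members 24 rose and 2 fell, beside 18.2% and 15.5% of all genes tested, with a median of 1.06. CA9, a cell surface carbonic anhydrase of pH control (ENSG00000107159, chromosome 9, 35673856 to 35681159), had 6, 1 and 0 counts in the fresh libraries and 24, 35 and 42 in the senescent ones (log2 change 3.94 ± 0.55, edgeR adjusted p = 2.08e-07). In FPKM these were 0.201, 0.0385 and 0 against 0.955, 1.37 and 1.58, and the libraries did not overlap. The fold of so low a gene depends on the prior count of the fit. Exons of CA9 share 38.5% of their bases with a gene on the other strand, and whether counting used strand is not given in the sources used here. BNIP3, which marks mitochondria for removal, stood at 18.1, 17.7 and 17.7 FPKM in fresh and 74.3, 69.8 and 77.2 in senescent medium (log2 change 2.05 ± 0.05, edgeR adjusted p = 2.75e-33), and its 6 cores above were the most of the genes shown. ANGPTL4, a secreted inhibitor of lipoprotein lipase, stood at 0.857, 1.01 and 1.18 FPKM in fresh and 4.23, 4.08 and 3.98 in senescent medium (log2 change 2.01 ± 0.14, edgeR adjusted p = 1.27e-15). LOX, which cross-links collagen, stood at 4.40, 4.03 and 3.94 FPKM in fresh and 13.5, 12.9 and 13.7 in senescent medium (log2 change 1.70 ± 0.07, edgeR adjusted p = 5.8e-23). Every senescent library of these genes lay above every fresh one.

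Other HIF targets rose by less. The angiogenic growth factor VEGFA stood at 3.35, 2.96 and 2.75 FPKM in fresh and 7.55, 7.65 and 6.25 in senescent medium (1.24 ± 0.09), and the glucose transporter SLC2A3 at 8.86, 8.44 and 9.12 in fresh and 20.2, 20.1 and 20.4 in senescent medium (1.20 ± 0.05). PDK1 (1.25), a pyruvate dehydrogenase kinase, PFKFB4 (1.46), which makes an activator of glycolysis, and HILPDA (1.33), a lipid droplet protein, rose too. The collagen-modifying P4HA1 (1.15), P4HA2 (1.07) and PLOD2 (0.93) rose as a group. HIF's own hydroxylases EGLN1 (0.52) and EGLN3 (1.04) also rose. The vasodilator peptide ADM fell instead, from 13.7, 13.8 and 13.2 FPKM to 8.78, 9.91 and 7.37 (log2 change -0.64 ± 0.14, edgeR adjusted p = 0.000788), and so did the repressor BHLHE40 (-0.25 ± 0.04). DDIT4, an inhibitor of mTOR whose exons overlap another gene, was at 16.8, 16.9 and 16.9 FPKM in fresh and 16.8, 18.8 and 14.97 in senescent medium and was not called (-0.0037, edgeR adjusted p = 0.983), except with GC content and length corrected for (-0.23). Levels in proliferative medium were higher still for most of the list: 19 of 30 members were lower and 2 higher in senescent than in proliferative medium, where 12.4% of all genes tested were lower and 16.6% higher (29% called), with a median of -0.29. NDRG1 was at 169, 174 and 174 FPKM in proliferative medium (-0.43 ± 0.04 against it), and VEGFA at 12.3, 12.2 and 11.9 (-0.76 ± 0.08).

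Nearly every step of glycolysis was higher in senescent than in fresh medium. Of 19 genes 17 rose and 0 fell, beside 18.2% and 15.5% of all genes tested, with a median of 0.79. HK2, the inducible hexokinase of the first step, stood at 3.91, 3.94 and 3.67 FPKM in fresh and 12.3, 12.3 and 10.9 in senescent medium (log2 change 1.63 ± 0.07, edgeR adjusted p = 3.19e-22). PGK1, an ATP-yielding kinase whose promoter stretch is shown above, stood at 58.4, 56.5 and 58.2 FPKM in fresh and 172, 169.7 and 165 in senescent medium (log2 change 1.55 ± 0.03, edgeR adjusted p = 7.79e-34). LDHA, which turns pyruvate into lactate, stood at 149, 146 and 151 FPKM in fresh and 305, 302 and 303 in senescent medium (log2 change 1.03 ± 0.03, edgeR adjusted p = 9.32e-29). The libraries of each of these genes lay apart by group. GPI (1.37 ± 0.04), ENO2 (1.41 ± 0.07), ALDOC (1.46 ± 0.25) and the lactate exporter SLC16A3 (1.03 ± 0.11) rose as well. GAPDH, often taken as a constant gene, stood at 1386, 1371 and 1332 FPKM in fresh and 1867, 1833 and 1953 in senescent medium (0.47 ± 0.03). PFKM (0.02, edgeR adjusted p = 0.836) and LDHB (-0.15, edgeR adjusted p = 0.408) were not called, and exons of LDHB and ALDOA overlap other genes. Against proliferative medium 1 member was higher and 8 were lower, with a median of -0.087.

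Metallothioneins are small proteins that bind zinc and copper. Of 12 listed genes of this family and the zinc response 8 were tested, and 2 rose and 1 fell, with a median of 0.33. Among all genes tested 18.2% rose and 15.5% fell, so these counts are near the background. MT1E stood at 29.6, 33.2 and 32.4 FPKM in fresh and 54.4, 54.9 and 69.8 in senescent medium (log2 change 0.91 ± 0.12, edgeR adjusted p = 1.65e-05), and MT1F at 0.888, 0.613 and 0.410 in fresh and 1.69, 1.59 and 1.93 in senescent medium (1.44 ± 0.24). MT1X was at 3.28, 2.83 and 3.22 FPKM in fresh and 4.84, 5.31 and 3.59 in senescent medium and was not called (0.55, edgeR adjusted p = 0.0859), though it was without the third senescent library (0.0465). The zinc exporter SLC30A1 fell (-0.37 ± 0.13), but was not called without the third fresh (edgeR adjusted p = 0.108) or the third senescent library (0.0795). DESeq2, a fit of the 6 libraries alone, a non-robust fit, limma on log2(FPKM + 0.1) and a fit with no filter each called 4 rises in place of 2, and reads may be shared among these near-identical genes. Levels in proliferative medium were much higher, at 192, 189.7 and 189.9 FPKM for MT1E and 21.1, 21.6 and 23.8 for MT1X. Senescent medium was lower than proliferative for 6 of the 8 tested genes, 1 was higher, and the median was -1.13 (MT1E -1.67 ± 0.11, edgeR adjusted p = 2.69e-09). The metal-sensing factor MTF1 binds elements with the core TGCACNC or TGCGCNC on either strand. The promoter of MT1X is shown with its 4 cores in capitals, since MT1E and MT1F had no entry among the promoters searched. MT1X was not called against fresh medium but was lower than in proliferative medium (log2 difference -2.27 ± 0.20, edgeR adjusted p = 2.47e-08).
MT1X (chr16:56682305-56682423, plus strand): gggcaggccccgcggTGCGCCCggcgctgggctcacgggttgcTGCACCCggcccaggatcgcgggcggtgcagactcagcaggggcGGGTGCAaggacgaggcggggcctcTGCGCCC
The core was in 5 of 7 promoters of this list with an entry (71.4%) and in 32.8% of the promoters of genes tested.

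Interferon-stimulated genes were in part higher than in fresh medium and in part lower than in proliferative medium. Of 40 listed genes 35 were tested, 19 rose and 4 fell, beside 18.2% and 15.5% of all genes tested, with a median of 0.33. OASL, a sensor relative that amplifies antiviral signalling, stood at 1.495, 1.77 and 2.03 FPKM in fresh and 4.25, 4.48 and 4.33 in senescent medium (log2 change 1.30 ± 0.12, edgeR adjusted p = 4.67e-12). IFIT1, which binds viral RNA ends, stood at 3.48, 3.35 and 3.04 FPKM in fresh and 6.36, 6.22 and 6.49 in senescent medium (log2 change 0.95 ± 0.08, edgeR adjusted p = 8.81e-13), and IFIT3, its partner, at 5.11, 4.99 and 6.12 in fresh and 8.71, 9.06 and 9.23 in senescent medium (0.73 ± 0.09). Senescent and fresh libraries did not overlap for any of these genes. IFI27 (1.68 ± 0.09), OAS3 (1.73 ± 0.17) and IFITM1 (0.92 ± 0.12), whose exons overlap another gene, rose too. OAS2 rose (2.51 ± 0.64, not called by limma on log2(FPKM + 1)) on 1, 1 and 3 counts in fresh and 14, 9 and 4 in senescent medium. The antiviral factors STAT2 (-0.28 ± 0.05), MX2 (-0.35 ± 0.06), DDX58 (-0.28 ± 0.09) and PARP14 (-0.43 ± 0.08) fell, 4 of 35 where 15.5% of all genes tested fell. DDX58 was not called without the third fresh, the first senescent or the second senescent library (edgeR adjusted p = 0.055 to 0.0849). Against proliferative medium 0 of 35 genes were higher and 20 lower, with a median of -0.40. IFIT2 was at 2.73, 2.79 and 2.52 FPKM in fresh, 4.59, 4.14 and 4.32 in senescent and 13.4, 13.7 and 13.02 in proliferative medium (log2 difference -1.62 ± 0.09, edgeR adjusted p = 9.02e-19, against proliferative).

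The factor complex switched on by interferon binds an element searched here as GAAA, any 2 bases, GAAA, on either strand. It was found in 19 of 31 promoters of the interferon list with an entry (61.3%) and in 2.38% of the promoters of genes tested. The 2 stretches shown belong to genes that rose and stayed below their level in proliferative medium, with the element in capitals, which on the gene's strand reads TTTC, any 2 bases, TTTC.
IFIT1 (chr10:89392492-89392544, plus strand): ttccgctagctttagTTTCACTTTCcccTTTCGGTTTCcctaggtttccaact
IFIT3 (chr10:89327826-89327893, plus strand): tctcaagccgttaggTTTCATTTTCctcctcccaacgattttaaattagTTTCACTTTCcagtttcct
Of 16 genes of MHC class I antigen presentation 8 rose and 3 fell, beside 18.2% and 15.5% of all genes tested. Their median was 0.19. The heavy chains HLA-B (211, 210.3 and 211 FPKM in fresh, 318, 321 and 295 in senescent medium, 0.56 ± 0.04) and HLA-E (0.66 ± 0.06) rose, as did HLA-C and HLA-F (0.47 and 0.58), all with near-identical relatives. The light chain B2M was not called (-0.02, edgeR adjusted p = 0.907), and the peptide trimmers ERAP1 (-0.34) and ERAP2 (-0.56) fell. ERAP2 was not called by limma or without the third fresh, the first senescent or the third senescent library. Only 1 fall was called without the third fresh, the first senescent or the third senescent library. Against proliferative medium 2 of these genes were higher and 3 lower.

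Cytokine genes and NF-kB targets were higher than in fresh medium. Of 28 listed genes 23 were tested, 16 rose and 0 fell, beside 18.2% and 15.5% of all genes tested, with a median of 0.75. IL6, a main cytokine of the senescent secretome, stood at 0.838, 0.746 and 1.12 FPKM in fresh and 2.86, 2.62 and 2.98 in senescent medium (log2 change 1.63 ± 0.23, edgeR adjusted p = 3.48e-07). The neutrophil attractant CXCL8 stood at 0.689, 0.396 and 0.438 FPKM in fresh and 1.46, 1.35 and 1.25 in senescent medium (log2 change 1.40 ± 0.30, edgeR adjusted p = 0.000328). IL6 and CXCL8 were low in every library but without overlap between groups. RELB, a subunit of NF-kB, stood at 2.77, 3.92 and 3.79 FPKM in fresh and 8.65, 8.31 and 5.96 in senescent medium (1.13 ± 0.16), and LIF, a cytokine of the IL6 family, at 2.07, 2.43 and 2.13 in fresh and 4.74, 5.17 and 4.09 in senescent medium (1.08 ± 0.14). CCL5 rose (3.13 ± 0.66) from 2, 1 and 1 counts in the fresh libraries to 16, 10 and 8 in the senescent ones. TNF (1.04), the anti-apoptotic BIRC3 (1.00), IL32 (0.90), the adhesion receptor ICAM1 (0.64) and the inhibitors NFKBIA (0.46) and TNFAIP3 (0.60) also rose. IL1A (0.19, edgeR adjusted p = 0.57) and IL1B (-0.17, edgeR adjusted p = 0.335) were not called, and IL1B fell without the third senescent library (-0.35, edgeR adjusted p = 0.0392). IL6 was at 1.31, 1.74 and 1.56 FPKM in proliferative medium (log2 difference 0.88 ± 0.22, edgeR adjusted p = 0.00164, against it). Over the list, 6 genes were higher and 1 lower than in proliferative medium, with a median of 0.19.

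A further list holds genes that senescent cells themselves secrete or carry as marks. Of 29 listed genes 22 were tested, 10 rose and 4 fell, beside 18.2% and 15.5% of all genes tested, with a median of 0.16, and 7 fell with library totals. MMP1, the interstitial collagenase (ENSG00000196611, chromosome 11, 102789920 to 102798160), stood at 8.86, 7.25 and 8.49 FPKM in fresh, 22.2, 23.1 and 19.4 in senescent and 5.14, 5.03 and 4.603 in proliferative medium. It rose against fresh (log2 change 1.39 ± 0.10, edgeR adjusted p = 2.18e-15) and was higher than in proliferative medium (log2 difference 2.13 ± 0.10, edgeR adjusted p = 5.47e-20), and no senescent library came near the range of either other group. IGFBP6, which binds insulin-like growth factor II, stood at 49.0, 50.1 and 45.8 FPKM in fresh and 112, 113 and 86.1 in senescent medium (1.10 ± 0.15), with the third senescent library the lowest. The gelatinase MMP9 (1.08), the membrane protease MMP14 (0.46) and the urokinase receptor PLAUR (0.50) rose. IGFBP3 fell from 36.9, 38.1 and 38.0 FPKM to 22.4, 22.2 and 24.6 (log2 change -0.71 ± 0.05, edgeR adjusted p = 1.52e-14), and so did the protease inhibitor TIMP2 (-0.19 ± 0.04). Of the marks of senescence itself, the nuclear lamin LMNB1 fell (-0.34 ± 0.05). CDKN1A was not called, at 8.02, 9.82 and 9.20 FPKM in fresh and 9.11, 7.97 and 8.41 in senescent medium (-0.08, edgeR adjusted p = 0.495), but was lower with GC content and length corrected for (-0.24, edgeR adjusted p = 0.0185). Nor was the lysosomal galactosidase GLB1 called (0.10, edgeR adjusted p = 0.122). Against proliferative medium 8 genes were higher and 2 lower.

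The epithelial and matrix genes showed rises in keratins, laminin-332 and fibronectin beside falls in fibrillar and basement membrane collagens. Of 26 genes listed under keratins and epithelial junctions 21 were tested, 10 rose and 2 fell, beside 18.2% and 15.5% of all genes tested. Their median was 0.33. The tight junction gene CLDN1 stood at 1.08, 1.16 and 0.801 FPKM in fresh and 2.74, 3.30 and 3.94 in senescent medium (1.72 ± 0.17), while the junction scaffold TJP1 (-0.34 ± 0.05) and KRT7 (-0.21 ± 0.04) fell. SLPI, KRT16 and KRT17, given above, are on this list. SLPI, a secreted inhibitor, is neither a keratin nor a junction gene but is counted among the 10 rises. Against proliferative medium 7 were higher and 4 lower. LAMB3, a chain of the epithelial laminin-332, stood at 3.16, 3.20 and 2.47 FPKM in fresh and 11.4, 10.3 and 10.9 in senescent medium (log2 change 1.89 ± 0.10, edgeR adjusted p = 4.61e-20). Its senescent libraries were clear of all fresh ones. LAMA3, another chain of it, rose at low level (0.69 ± 0.15). Fibronectin, FN1, stood at 218, 217 and 219.5 FPKM in fresh and 381, 381 and 396 in senescent medium (0.82 ± 0.03). The basement membrane collagen COL4A1 fell from 18.6, 19.1 and 18.3 to 8.52, 8.65 and 7.19 FPKM (log2 change -1.20 ± 0.07, edgeR adjusted p = 7.53e-15), and COL1A1, the main chain of type I collagen, from 218, 216 and 205 to 121, 120.0 and 115 (-0.84 ± 0.04). Over 33 tested collagens, laminins and integrins 13 rose and 7 fell, with a median of 0.051 that turned to -0.020 with library totals, and 5 were higher and 13 lower than in proliferative medium.

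**Figure D3:**
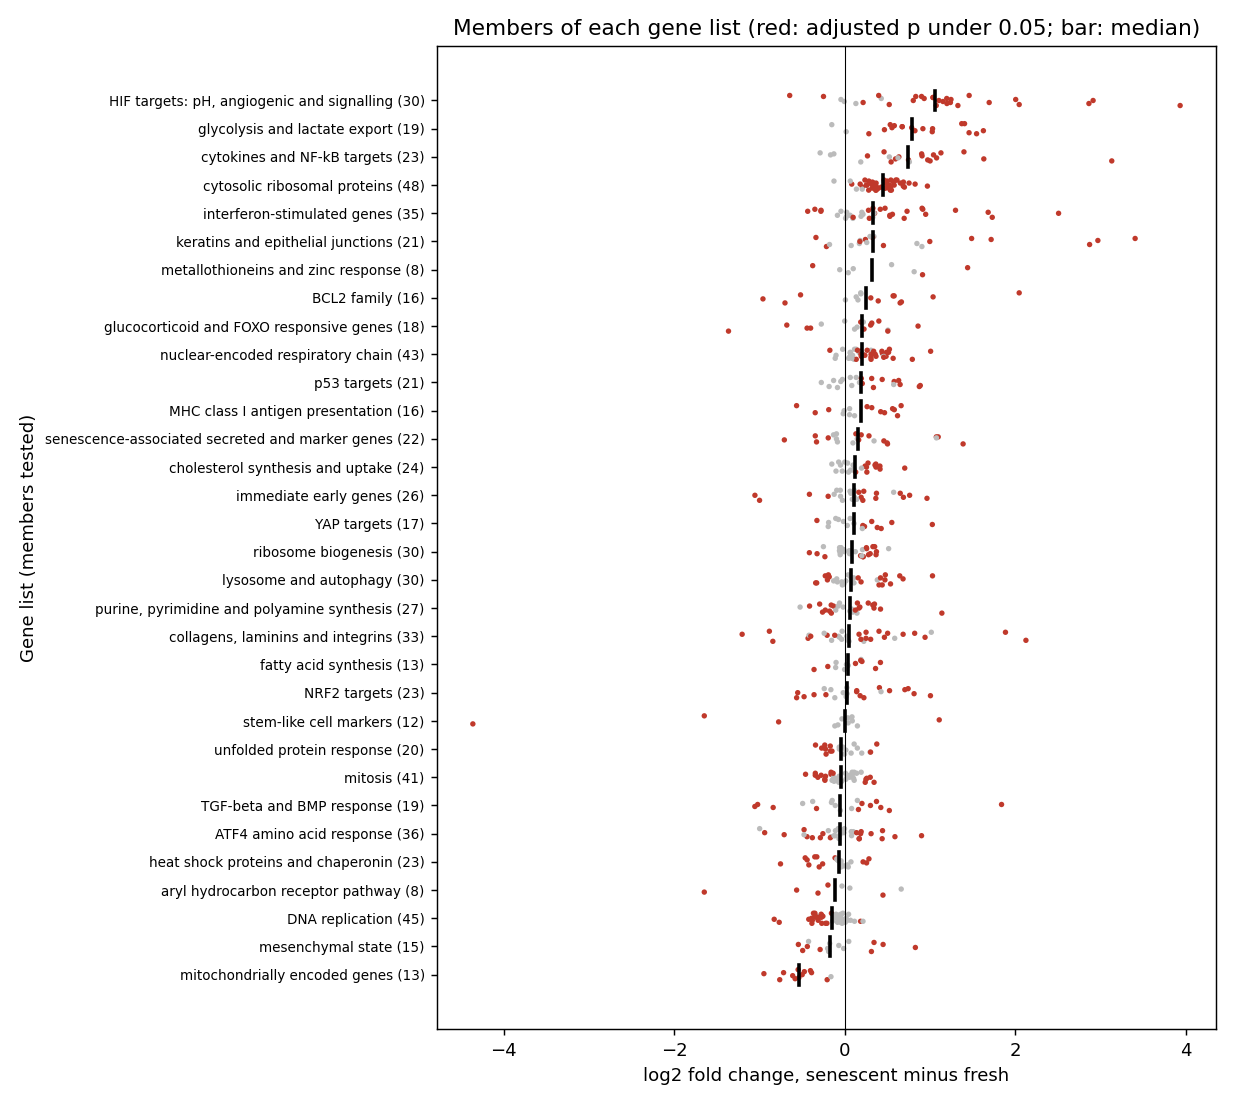
Log2 fold change (senescent minus fresh) of each tested member of 32 gene lists; red points have an edgeR adjusted p under 0.05, grey points do not, and black bars are list medians. The HIF targets have the highest median (1.06) and the mitochondrially encoded genes the lowest (-0.54).

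Of 15 mesenchymal genes 4 rose and 4 fell, beside 18.2% and 15.5% of all genes tested, with a median of -0.18. N-cadherin, CDH2, stood at 33.8, 33.8 and 34.3 FPKM in fresh and 22.6, 22.8 and 24.5 in senescent medium (log2 change -0.54 ± 0.06, edgeR adjusted p = 1.67e-09), and the matrix protein SPARC fell (-0.49 ± 0.04). Vimentin, VIM, rose (0.31 ± 0.04), as did the collagen cross-linker LOXL2 (0.45 ± 0.04). Against proliferative medium 1 of the list was higher and 3 lower. Of 19 TGF-beta and BMP response genes 7 rose and 4 fell, with a median of -0.050, and 3 were higher and 4 lower than in proliferative medium. The secreted matrix protein TGFBI, named for its induction by TGF-beta, stood at 289, 282 and 285 FPKM in fresh, 137, 136 and 139 in senescent and 296, 302 and 303 in proliferative medium. It fell against fresh (log2 change -1.05 ± 0.03, edgeR adjusted p = 1.72e-29) and was lower than in proliferative medium (log2 difference -1.12 ± 0.03, edgeR adjusted p = 7.88e-30), whose libraries lay above the fresh ones. SMAD6 (-1.02 ± 0.12) and ID3 (-0.84 ± 0.09), targets of BMP signalling, fell. The ligand TGFB1 (0.52 ± 0.04) and its receptor TGFBR2 (0.42 ± 0.05) rose. GREM1, a secreted BMP inhibitor, rose (1.84 ± 0.26) from 15, 14 and 17 counts to 42, 49 and 58.

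Mitosis genes were mostly not called against fresh medium and were nearly all above their level in proliferative medium. Of 41 mitosis genes 5 rose and 11 fell, beside 18.2% and 15.5% of all genes tested. Their median was -0.047, and 7 fell without the third fresh library. CDK1, the kinase that drives entry into mitosis, stood at 25.6, 23.5 and 26.8 FPKM in fresh and 32.4, 33.9 and 30.3 in senescent medium (log2 change 0.35 ± 0.06, edgeR adjusted p = 8.87e-06). Its partner CCNB1 stood at 61.5, 63.5 and 63.9 FPKM in fresh and 66.8, 67.4 and 64.9 in senescent medium, with no call (0.07 ± 0.05, edgeR adjusted p = 0.243). The proliferation marker MKI67 stood at 30.9, 30.1 and 31.7 FPKM in fresh and 24.9, 24.3 and 25.4 in senescent medium (log2 change -0.31 ± 0.04, edgeR adjusted p = 2.81e-07). CDK1 libraries of senescent medium lay above all fresh ones and MKI67 libraries below. The securin PTTG1 (0.30), HMMR (0.26, not called without the third senescent library) and ANLN (0.25) rose, and CENPF (-0.34), ASPM (-0.34), KIF20A (-0.28) and the regulator FOXM1 (-0.23) fell. In proliferative medium CCNB1 was at 44.9, 43.1 and 42.0 FPKM (log2 difference 0.62 ± 0.05, edgeR adjusted p = 1.73e-13 for senescent against proliferative). Of the 41 genes 39 were higher and 0 lower in senescent than in proliferative medium, with a median of 0.48.

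DNA replication genes fell in part. Of 45 members 1 rose and 21 fell, beside 18.2% and 15.5% of all genes tested, with a median of -0.14. The helicase subunit MCM4 stood at 64.7, 64.2 and 64.6 FPKM in fresh and 48.7, 48.5 and 51.5 in senescent medium (log2 change -0.38 ± 0.04, edgeR adjusted p = 8.88e-11). CLSPN, which relays replication stress, stood at 7.36, 6.91 and 7.501 FPKM in fresh and 4.61, 5.33 and 6.32 in senescent medium (log2 change -0.42 ± 0.09, edgeR adjusted p = 0.000425), with the third senescent library the closest to fresh. E2F8, a repressor of the late cell cycle, stood at 3.19, 3.45 and 3.01 FPKM in fresh and 1.81, 2.04 and 1.81 in senescent medium (log2 change -0.77 ± 0.13, edgeR adjusted p = 1.55e-05). Fresh and senescent libraries did not overlap for these genes. CCNE2, which drives entry into S phase and whose exons overlap another gene, fell by the most on the list (-0.83 ± 0.13), and POLE (-0.35), POLA1 (-0.38) and RRM2 (-0.31) fell too. MCM7 was the member that rose (0.19 ± 0.05). PCNA was not called (-0.05, edgeR adjusted p = 0.451), but fell with library totals (-0.12) or with GC content and length corrected for (-0.24). CLSPN was at 2.80, 2.51 and 2.85 FPKM in proliferative medium, and 40 of the 45 genes were higher and 0 lower in senescent than in proliferative medium, with a median of 0.39.

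Sterol synthesis genes rose in part. Of 24 tested genes of cholesterol synthesis and uptake 11 rose and 0 fell against fresh medium, beside 18.2% and 15.5% of all genes tested. Their median was 0.12, and 7 rose without the third fresh library. FDFT1 (0.37) and MVD (0.41), enzymes of sterol synthesis, rose. Against proliferative medium 20 of the 24 genes were higher and 0 lower, with a median of 0.45. Of 13 tested fatty acid synthesis genes 5 rose, MID1IP1 (0.42) by the most, and 2 fell, FASN (-0.20 ± 0.04) and ME1 (-0.36 ± 0.08), with a median of 0.042 that turned to -0.029 with library totals. Against proliferative medium 11 were higher and 0 lower. Of 27 purine, pyrimidine and polyamine genes 10 rose and 8 fell, with a median of 0.061 that turned to -0.010 with library totals, and 18 were higher and 0 lower than in proliferative medium. The spermine oxidase SMOX rose from 1.93 ± 0.262 to 4.26 ± 0.0394 FPKM (SD, n = 3; 1.14), and CAD, which starts pyrimidine synthesis, fell (-0.41 ± 0.04). Library totals called 5 rises in that list, no filter 5 falls, and leaving out the second senescent library 4 falls and the third 5.

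Ribosomal protein genes rose nearly throughout. Of 48 cytosolic members 44 rose and 0 fell, beside 18.2% and 15.5% of all genes tested, with a median of 0.45. RPL9 of the large subunit stood at 44.5, 44.4 and 43.6 FPKM in fresh and 89.4, 90.0 and 80.5 in senescent medium (log2 change 0.97 ± 0.08, edgeR adjusted p = 3.14e-08), RPS25 of the small subunit at 248, 235 and 245 in fresh and 427, 416 and 386 in senescent medium (0.76 ± 0.09). RPS15, RPS19, RPL6 and RPL23 were not called (-0.12, 0.14, 0.07 and 0.21), though RPL6 rose without the second senescent library, RPS19 in a fit of the 6 libraries alone or with no filter, and RPL23 in a non-robust fit or with GC content and length corrected for. Across 11974 genes the log2 fold change went with log2 gene length at r = -0.27 and with GC content at r = 0.19 (Pearson, genes are not independent). Gene length here is that of all annotated exons of a gene merged, such as 5022 bases for RPL9, 8626 for RPL14 and 1477 for RPS25. With both corrected for, 42 of the 48 rose with a median of 0.36. The merged length can exceed that of the transcript a gene makes, so an effect of transcript length was not tested. Library by library, deviations from the mean of all libraries went with gene length at r = -0.34, -0.34 and -0.22 in senescent medium and 0.023 to 0.065 in fresh medium. Processed copies of these genes make the split of reads uncertain. Of 30 ribosome biogenesis genes 11 rose and 3 fell, with a median of 0.092, and 5 fell with library totals or with GC content and length corrected for. NPM1 (0.30 ± 0.04) and MYC (0.21 ± 0.05) rose, MYC not with GC content and length corrected for (0.070), and the polymerase I subunit POLR1A fell (-0.41 ± 0.05). Against proliferative medium 43 ribosomal protein genes were higher and 0 lower, with a median of 0.37.

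Nuclear and mitochondrial genes of the respiratory chain moved apart. Of 43 nuclear-encoded subunits 24 rose and 1 fell, beside 18.2% and 15.5% of all genes tested. Their median was 0.20, and with GC content and length corrected for 17 rose. COX7C stood at 74.1, 71.0 and 73.4 FPKM in fresh and 106, 108 and 93.6 in senescent medium (0.49 ± 0.05), and ATP5F1C at 88.6, 88.3 and 85.5 in fresh and 122, 122 and 116 in senescent medium (0.46 ± 0.04). COX6A1 rose (1.01 ± 0.24), with senescent libraries at 51.7, 57.7 and 33.0 FPKM, of which the third stood well below the others. The subunit that fell was SDHA (-0.17 ± 0.05). Against proliferative medium 24 were higher and 0 lower. Of 13 mitochondrially encoded genes 0 rose and 12 fell, with a median of -0.54. MT-CYB, the cytochrome b of complex III, stood at 3061, 3032 and 3016 FPKM in fresh and 1732, 1766 and 2047 in senescent medium (log2 change -0.72 ± 0.06, edgeR adjusted p = 2.01e-08). MT-ND4L stood at 4350.0, 4656 and 4689 FPKM in fresh and 2147, 2089 and 2867 in senescent medium (log2 change -0.95 ± 0.14, edgeR adjusted p = 3.94e-05). In both genes the third senescent library was the nearest to fresh medium but still below it. MT-ND3 was not called (-0.16, edgeR adjusted p = 0.429). Levels in proliferative medium were 1642, 1631 and 1651 FPKM for MT-CYB, and against it 3 of these 13 genes were higher and 2 lower.

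Heat shock genes fell in part and were mostly above their level in proliferative medium. Of 23 chaperone genes 3 rose and 9 fell, beside 18.2% and 15.5% of all genes tested. Their median was -0.072, and 15 fell with library totals. HSPA8, the main constitutive HSP70, stood at 212, 208 and 207 FPKM in fresh, 164, 163 and 165 in senescent and 112, 117 and 118 in proliferative medium (log2 change -0.35 ± 0.04, edgeR adjusted p = 7.34e-11, against fresh). The inducible HSPA1B, nearly identical to HSPA1A, fell (-0.75 ± 0.07), as did HSPH1 (-0.42 ± 0.05) and CHORDC1 (-0.46 ± 0.07), while the chaperonin subunits CCT2 (0.22) and CCT8 (0.26) rose. Against proliferative medium 20 were higher and 0 lower. Of 20 genes of the unfolded protein response 2 rose and 8 fell, with a median of -0.042, and 5 fell without the third fresh or the second senescent library. HSPA5, the chaperone BiP, fell (-0.22 ± 0.03), and the quality control lectin EDEM1 rose (0.38 ± 0.05). Against proliferative medium 8 were higher and 0 lower. Of 36 tested ATF4 targets, genes of amino acid shortage, 10 rose and 8 fell, with a median of -0.058. ATF4 itself rose (0.44 ± 0.05), while CBS, which joins serine to homocysteine (-0.94 ± 0.27, not called without the third fresh or the third senescent library), the glycine and serine pathway enzyme PSAT1 (-0.38 ± 0.07) and the amino acid carriers SLC7A11 (-0.48 ± 0.13) and SLC1A4 (-0.71 ± 0.13) fell. In that list 6 rose and 13 fell with library totals, and 14 fell with GC content and length corrected for. Against proliferative medium 21 were higher and 3 lower.

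Of 30 lysosome and autophagy genes 11 rose and 6 fell, beside 18.2% and 15.5% of all genes tested, with a median of 0.080. The lysosomal protease CTSB stood at 50.2, 51.2 and 49.3 FPKM in fresh and 80.6, 79.0 and 76.5 in senescent medium (log2 change 0.65 ± 0.04, edgeR adjusted p = 6.34e-19), and the cholesterol carrier NPC2 at 18.7, 18.6 and 17.3 in fresh and 29.98, 29.8 and 28.1 in senescent medium (0.69 ± 0.06). CTSL, another protease (0.54), and NPC1, the partner of NPC2 (0.48), rose, and CTSA (-0.34), whose exons overlap another gene, and the membrane protein LAMP1 (-0.19) fell. Against proliferative medium 10 were higher and 7 lower. Of 21 tested p53 targets 10 rose and 0 fell, with a median of 0.20. The death receptor FAS stood at 1.54, 1.39 and 1.28 FPKM in fresh and 2.72, 2.597 and 2.47 in senescent medium (log2 change 0.89 ± 0.14, edgeR adjusted p = 3.16e-06), with no overlap. Against proliferative medium 4 p53 targets were higher and 3 lower. PHLDA3, which restrains AKT, rose (0.88 ± 0.17), and so did GADD45A (0.63 ± 0.09), whereas MDM2 (-0.13, edgeR adjusted p = 0.159) was not called, but fell with library totals (-0.20). Without the first senescent library 6 of them rose, and library totals called 2 falls. Of 23 tested NRF2 targets 10 rose and 5 fell, with a median of 0.028 that turned negative with library totals or with GC content and length corrected for (8 falls with the latter). The ferritin heavy chain FTH1, whose exons overlap another gene, rose (0.71 ± 0.04), and the quinone reductase NQO1 fell from 37.9, 36.4 and 38.1 FPKM to 26.1, 25.4 and 24.7 (log2 change -0.56 ± 0.05, edgeR adjusted p = 2.63e-12). Of 8 tested genes of the aryl hydrocarbon receptor pathway 1 rose and 4 fell, with a median of -0.11. AHRR, given below, and NQO1, also an NRF2 target, were among the falls, and the receptor itself, AHR, whose exons overlap another gene, was the member that rose (0.45 ± 0.13). Its target CYP1B1 stood at 4.15, 3.81 and 4.51 FPKM in fresh, 3.28, 3.25 and 3.52 in senescent and 5.49, 5.38 and 5.26 in proliferative medium (-0.31 ± 0.08 against fresh, -0.68 ± 0.08 against proliferative). TIPARP, another target, fell (-0.20 ± 0.07), but was not called without the second fresh, the third fresh, the first senescent or the second senescent library, or with no filter. Against proliferative medium 0 were higher and 3 lower.

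The BCL2 family sets the threshold of mitochondrial cell death. Of 16 tested members 8 rose and 3 fell, beside 18.2% and 15.5% of all genes tested, with a median of 0.25. BCL2L11, which encodes the death-promoting BIM, stood at 8.41, 7.96 and 9.20 FPKM in fresh, 4.34, 4.50 and 4.33 in senescent and 6.41, 6.93 and 6.39 in proliferative medium (log2 change -0.96 ± 0.07, edgeR adjusted p = 3.56e-15, against fresh). The death-promoting BMF fell too (-0.52 ± 0.07), as did BCL2 itself at low level (-0.70 ± 0.19). The protective BCL2L1, whose exons overlap another gene, rose from 16.1, 15.6 and 15.3 to 23.2, 25.6 and 21.1 FPKM (log2 change 0.57 ± 0.09, edgeR adjusted p = 1.43e-05). The death-promoting PMAIP1 (0.58 ± 0.07), BBC3 (0.65 ± 0.21) and BIK (0.67 ± 0.18) rose, and for BBC3 and BIK the third senescent library lay within the range of the fresh ones. BBC3 was not called without the first or the second library of either medium, nor BIK without the first senescent library or with GC content and length corrected for. PMAIP1 and BBC3 are p53 targets too. Against proliferative medium 2 of the family were higher and 5 lower. MCL1 was not called (0.01, edgeR adjusted p = 0.88).

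Immediate early genes are switched on first when a cell is stimulated. Of 26 members 10 rose and 4 fell, beside 18.2% and 15.5% of all genes tested, with a median of 0.11. EGR1, a factor switched on within minutes of growth factor signalling, stood at 25.4, 27.1 and 25.6 FPKM in fresh and 12.2, 11.7 and 13.7 in senescent medium (log2 change -1.05 ± 0.06, edgeR adjusted p = 1.86e-18). FOS stood at 2.87, 3.67 and 3.66 FPKM in fresh and 1.91, 1.86 and 1.34 in senescent medium (log2 change -0.998 ± 0.14, edgeR adjusted p = 1.2e-07), and JUN fell (-0.41 ± 0.05). The libraries of EGR1 and FOS were apart by group. The phosphatase DUSP5 (0.97 ± 0.09), KLF2 (0.76 ± 0.11) and NR4A1 (0.69 ± 0.12) rose. Against proliferative medium 10 were higher and 3 lower. Of 17 tested YAP targets 7 rose and 1 fell, with a median of 0.11, while 3 fell in a fit of the 6 libraries alone or with upper-quartile factors and 4 with library totals. F3, the tissue factor that starts clotting, stood at 59.6, 57.4 and 60.7 FPKM in fresh and 119.6, 116 and 127 in senescent medium (log2 change 1.03 ± 0.04, edgeR adjusted p = 2e-24). CYR61 (0.43) and CTGF (0.32), secreted matrix proteins, rose. Against proliferative medium 9 YAP targets were higher and 1 lower. Of 18 tested glucocorticoid and FOXO responsive genes 7 rose and 4 fell, with a median of 0.20. The kinase SGK1 stood at 3.37, 3.59 and 3.96 FPKM in fresh and 1.25, 1.57 and 1.43 in senescent medium (log2 change -1.36 ± 0.11, edgeR adjusted p = 4.5e-14), and TXNIP, which curbs glucose uptake, at 62.3, 59.9 and 61.0 in fresh and 114, 114 and 106 in senescent medium (0.86 ± 0.04). Of these 18 genes 2 were higher and 8 lower than in proliferative medium.

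Of 16 stem-like markers 12 were tested, 1 rose and 3 fell, beside 18.2% and 15.5% of all genes tested. Their median of 0.0033 changed sign with library totals or with GC content and length corrected for. The surface protein CD24 stood at 147, 144 and 144 FPKM in fresh, 303, 319 and 317 in senescent and 237, 234 and 235 in proliferative medium (log2 change 1.11 ± 0.04, edgeR adjusted p = 2.42e-26, against fresh). SOX9, a factor of epithelial progenitors, stood at 16.2, 15.1 and 15.4 FPKM in fresh and 8.56, 8.27 and 10.5 in senescent medium (log2 change -0.77 ± 0.08, edgeR adjusted p = 4.95e-11). CD24 was higher and SOX9 lower in every senescent library. SOX2, a pluripotency factor, fell on 14, 17 and 22 counts in the fresh libraries and 0, 2 and 0 in the senescent ones (edgeR adjusted p = 0.000437), and KIT on 25, 20 and 22 counts in fresh and 2, 11 and 6 in senescent medium (edgeR adjusted p = 0.0121). KIT was not called without the first senescent library. With at least 5 CPM in 3 libraries asked for, 1 fall was called, and neither of these low genes was tested. Against proliferative medium 1 of the 12 was higher and 3 were lower. The hyaluronan receptor CD44 was not called (0.04, edgeR adjusted p = 0.398), but rose with GC content and length corrected for (0.13).

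The 15 largest falls, chosen by the same rule, had mean levels of 1.05 to 8.5 FPKM in fresh medium. FAM198B, a Golgi protein also known as GASK1B (ENSG00000164125, chromosome 4, 158124474 to 158173318), stood at 4.72, 4.54 and 4.77 FPKM in fresh, 0.709, 0.946 and 0.856 in senescent and 1.75, 1.79 and 1.70 in proliferative medium (log2 change -2.48 ± 0.11, edgeR adjusted p = 1.34e-22, against fresh). AHRR, the repressor of the aryl hydrocarbon receptor and its target (ENSG00000063438, chromosome 5, 304176 to 438291), stood at 3.87, 3.86 and 4.42 FPKM in fresh, 1.36, 1.41 and 1.12 in senescent and 2.63, 2.37 and 2.18 in proliferative medium (log2 change -1.65 ± 0.10, edgeR adjusted p = 7.84e-17, against fresh). PADI3, which converts arginine to citrulline in proteins, stood at 8.88, 7.68 and 8.94 FPKM in fresh and 2.94, 3.10 and 2.39 in senescent medium (log2 change -1.60 ± 0.13, edgeR adjusted p = 9.96e-14). Every senescent library of these genes lay below every fresh one. The matrix protein NPNT (-2.04 ± 0.22), the protease HGFAC (-2.22 ± 0.32), which activates hepatocyte growth factor, and the transcriptional repressor HIC1 (-1.40 ± 0.11), whose exons overlap another gene, fell as well. SAMD11 (-1.67), TMEM98 (-1.66), PLK5 (-1.78) and NXPH2 (-1.52) fell by similar amounts. The histone genes HIST1H1E (-1.68) and HIST2H2BE (-1.53) fell, as did POTEE (-2.61), POTEF (-1.38) and CGB8 (-1.48), and all 5 have close copies that make their counts uncertain. HIST1H1E had 35, 49 and 37 counts in fresh and 12, 7 and 15 in senescent medium. The libraries are of polyA RNA, so histone RNA without a polyA tail was not measured.

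Among genes that changed against fresh medium, some stood furthest from proliferative medium. The 8 furthest above it included MMP1, given above, and AOX1, an aldehyde oxidase, at 0.977, 0.949 and 1.51 FPKM in fresh, 2.40, 1.98 and 2.51 in senescent and 1.03, 0.946 and 0.967 in proliferative medium (log2 difference 1.23 ± 0.16, edgeR adjusted p = 4.29e-08, against proliferative). ITGB2 stood at 0.395, 0.293 and 0.301 FPKM in fresh, 1.18, 1.30 and 0.964 in senescent and 0.643, 0.504 and 0.494 in proliferative medium (log2 difference 1.07 ± 0.20, edgeR adjusted p = 5.52e-05, against proliferative). ITGB2 encodes the integrin beta chain of leukocytes, and PTPRC, which all leukocytes carry, was at 0 in these libraries. CTH, which makes cysteine (1.10 ± 0.15), the proton pump subunit ATP6V0A4 (1.12 ± 0.14) and VSTM1 (1.52 ± 0.44) were higher too. GFRA1, a receptor of glial-derived growth factors, was lower than in fresh (-0.81 ± 0.14) but higher than in proliferative medium (1.31 ± 0.16), and the guidance factor SEMA3D had the same order (-0.67 ± 0.19 and 1.09 ± 0.22).

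Among the genes called against fresh medium, those furthest below proliferative medium were the metallothioneins MT1E and MT1F, the interferon-induced IFIT2 and OASL, and 4 others. ITGB4, the integrin beta chain of hemidesmosomes that binds laminin-332, stood at 104, 98.4 and 98.4 FPKM in fresh, 79.3, 75.0 and 73.9 in senescent and 167, 172 and 172 in proliferative medium. It fell against fresh (log2 change -0.40 ± 0.04, edgeR adjusted p = 9.86e-12) and was lower still against proliferative medium (log2 difference -1.16 ± 0.04, edgeR adjusted p = 8.4e-27). KCP, a secreted modulator of BMP signals, lay between fresh and proliferative medium (0.81 ± 0.16 against fresh, -1.24 ± 0.14 against proliferative). ST20 (-1.22 ± 0.29 and -1.48 ± 0.28) and ZMAT1 (-0.87 ± 0.14 and -1.20 ± 0.14) were below both.

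Levels in the other preparations of senescent medium stand beside these as values, without a test. MMP1 was at 8.28 ± 0.824 FPKM (SD, n = 3) in boiled senescent medium, 6.39 ± 1.08 in its fraction under 3 kDa and 23.4 ± 1.28 in its fraction over 3 kDa, against 21.6 ± 1.93 in intact senescent medium. NDRG1 was at 59.1 ± 1.00, 10.6 ± 0.115 and 137 ± 2.12 FPKM in the same order, against 16.9 ± 0.760 in fresh and 127 ± 2.98 in intact senescent medium. For both genes the fraction over 3 kDa held a level near that of intact medium and the fraction under 3 kDa a level below fresh medium. SLPI was at 22.4 ± 1.498, 15.02 ± 1.37 and 26.6 ± 2.58 FPKM, against 2.76 ± 0.763 in fresh and 29.2 ± 1.40 in intact senescent medium. LAMB3 was at 5.43 ± 0.200, 4.26 ± 0.470 and 7.61 ± 0.357 FPKM, against 2.94 ± 0.411 and 10.9 ± 0.557. FAM198B was at 3.10 ± 0.186, 2.82 ± 0.213 and 1.19 ± 0.158 FPKM, against 4.68 ± 0.123 and 0.837 ± 0.120. In these means SLPI and LAMB3 were above fresh medium, and FAM198B below it, in every preparation of senescent medium. C3 was at 8.04 ± 0.315, 7.87 ± 0.266 and 10.4 ± 0.399 FPKM, all far above the 1.44 ± 0.0884 of fresh medium. AHRR was at 3.19 ± 0.232, 4.50 ± 0.251 and 4.10 ± 0.259 FPKM, where fresh medium had 4.05 ± 0.321 and intact senescent medium 1.30 ± 0.158. ITGB4 was at 166 ± 5.24, 232 ± 8.70 and 145 ± 4.38 FPKM, above both fresh (100.2 ± 3.02) and intact senescent medium (76.1 ± 2.90). The bar plot by medium shows that AHRR and ITGB4 were lowest in intact senescent medium among the 6 media drawn.

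**Figure D4:**
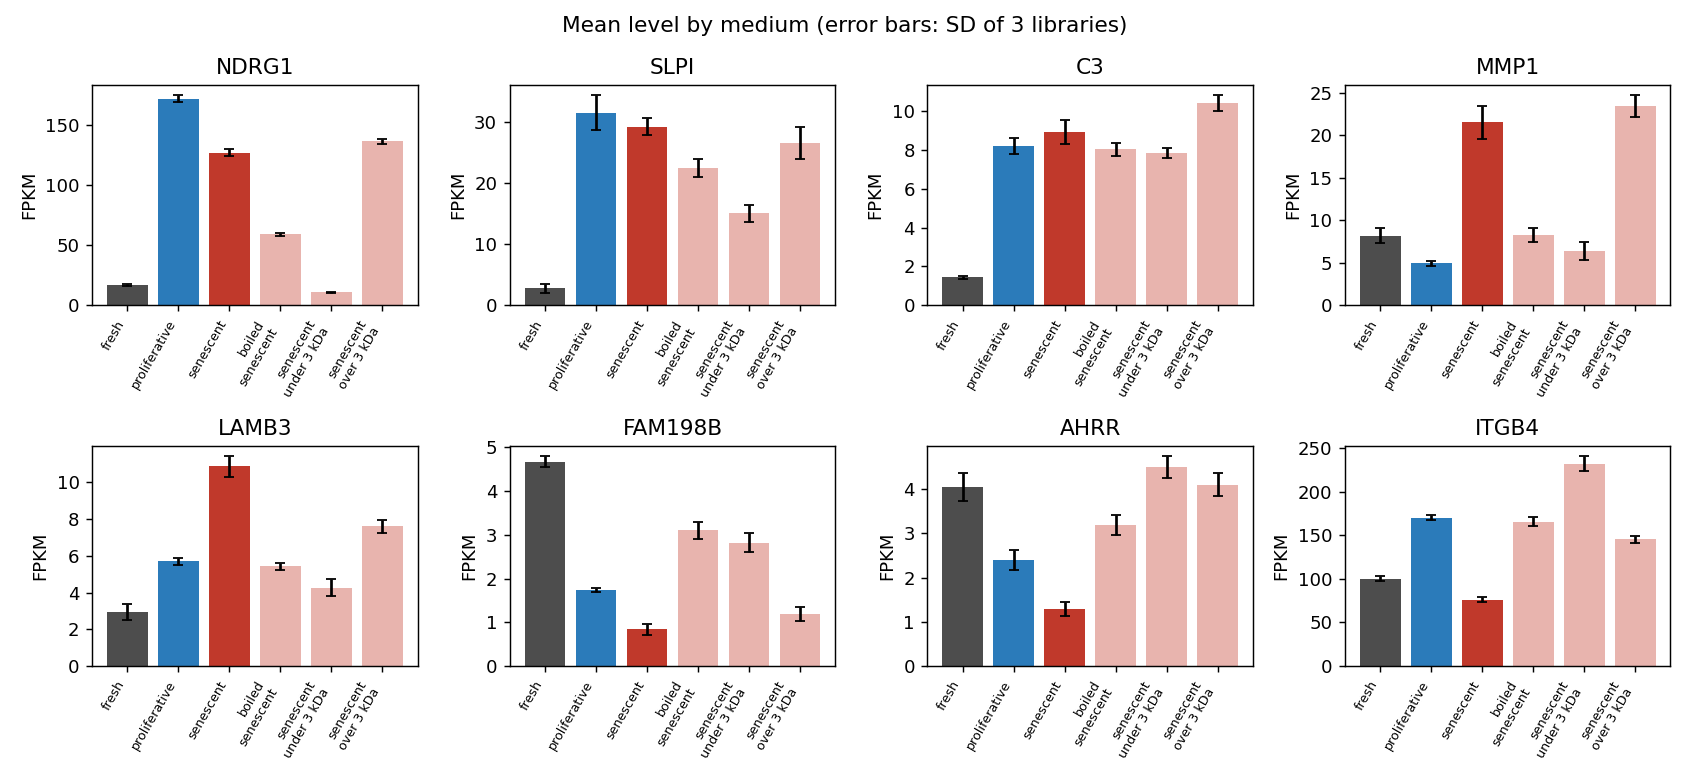
Mean FPKM of 8 genes in fresh (grey), proliferative (blue) and senescent medium (red) and in boiled senescent medium and its fractions under and over 3 kDa (pale red); error bars are the SD of 3 libraries. MMP1 is high in intact senescent medium and its fraction over 3 kDa, C3 is above fresh medium in all conditioned media, and AHRR and ITGB4 are lowest in intact senescent medium.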

How the data were processed

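The authors deposited 1 table with a count and an FPKM value for each of 58735 genes in each library. Per the submitters' processing notes, STAR 2.6.1, DESeq2 (version given as 2) and GRCh38 were used, with no roles given. The counting program is not given in the sources used here, nor is its strand setting. Per the labels' protocols, RNA was taken by Trizol and cleaned on a Qiagen column with DNase, and polyA libraries were made with NEBNext Ultra 2.

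The deposited counts were fitted with edgeR 4.0.16 (quasi-likelihood, robust, R 4.3.3) over all 24 libraries, with TMM factors, filterByExpr and 1 mean per group, leaving 16 residual degrees of freedom. SE is the size of a log2 fold change over the root of its F and is approximate. P-values were adjusted by Benjamini-Hochberg over 19210 genes. The FPKM values of the authors give levels only, except in alternatives with limma 3.58.1. The common biological coefficient of variation was 0.0638. Named genes were the 15 largest rises and falls among protein-coding genes called in the full fit and without each of the 6 libraries, at 1 FPKM or more in either group, and up to 5 called members of each list with others named for their role. Some genes that this rule names are not reported here. The 8 largest differences from proliferative medium each way, among genes called against fresh, were also named. The members and the 32 lists were chosen with earlier results of these data known. Promoter stretches are from RefSeq (GRCh38.p14), with 250 bases before the start searched. MT1E, MT1F, IFIT2, OASL and MMP1 are named only. Alternatives were other samples, scalings, tools (DESeq2 1.42.0), filters, a replicate block, GC and length correction, and leaving out each library.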

Additional observations from a re-analysis of the deposited data

How the results depend on the processing

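Against fresh medium, other tools, filters and fits called 3138 to 3514 rises and 2677 to 3340 falls, apart from library totals (2576 and 4079) and correction for GC content and length (3112 and 3523). Leaving out 1 library at a time gave 2884 to 3346 rises and 2301 to 2841 falls, 434 to 474 rises and 306 to 433 falls beyond 1 on the log2 scale, and 2784 to 3162 genes higher and 1904 to 2369 lower than in proliferative medium. Beyond 1, limma on log2(FPKM + 1), a scale that shrinks the change of low genes, called 116 rises and 47 falls, and asking for at least 5 CPM in 3 libraries, which tests fewer genes, called 212 and 66. With the replicate block 3467 genes rose and 2945 fell, and 3128 and 3513 with GC content and length corrected for as well. Deviations of libraries with the same number went together at r = 0.085, 0.054 and 0.12, each the highest for its fresh library, a weak hint of pairing that the labels do not state. Of 112 counts under alternatives 108 were within 1.5 times the reported ones. Of 5204 values of the 275 genes followed 5091 kept direction and call, 66 lost the call (in 21 genes, of which those named above carry it beside their value), 23 gained one (in 10 genes) and 24 changed sign, none of them in a called gene. The 24 belong to 8 genes near 0: with library totals CD44 (-0.029), MCL1 (-0.062), PFKM (-0.053) and RPL6 (-0.0055), with upper-quartile factors MCL1 (-0.018) and PFKM (-0.0086), with GC content and length corrected for B2M (0.028), CCNB1 (-0.031) and MCL1 (-0.012), with the replicate block added to that B2M (0.027), CCNB1 (-0.031) and MCL1 (-0.012), with no filter DDIT4 (0.0032), and in the 6 libraries alone MCL1 (-0.0020). Leaving out 1 library gave -0.087 to 0.034 for B2M, -0.088 to 0.073 for DDIT4, -0.062 to 0.32 for IL1A, -0.0036 to 0.024 for MCL1 and -0.027 to 0.055 for PFKM. Medians of 5 of the 32 lists changed sign under some alternative. Having 3 libraries a group limits what the smallest changes show, and genes such as CA9, CCL5, OAS2 and SOX2 rest on few counts.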

Other observations

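The counts against fresh medium were also taken by transcript class, with no test of a difference between classes. Of all genes tested 18.2% rose and 15.5% fell. Of 14396 protein-coding genes tested 22.1% rose and 17.1% fell, with a median log2 fold change of 0.023. Of 1401 antisense transcripts 56 rose (4.0%) and 126 fell (8.99%), both below the shares of all genes tested, with a median of -0.17. Transcribed unprocessed pseudogenes, copies of genes that arose by duplication, fell in 83 of 311 cases (26.7%) and rose in 12 (3.86%), with a median of -0.25. Sense intronic transcripts fell in 30 of 191 cases (15.7%), near the share of all genes tested, and rose in 5 (2.62%). Their median was -0.30. Processed pseudogenes, copied back from mRNA, rose in 84 of 712 cases (11.8%) and fell in 41 (5.76%), with a median of -0.0068. Long intergenic RNAs moved both ways, with 88 of 1086 higher (8.1%) and 86 lower (7.92%) and a median of 0.0024. The classes differ in level and length, strand-specific counting is not given in the sources used here, and the part of either in these counts was not tested.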
